A study of Mus musculus with 9 samples.

Results

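The 8 genes described here make or carry the transmitters of retinal amacrine cells, and they were taken from the 23997 gene symbols of each library by name (Gad1, Gad2, Slc32a1, Slc6a9, Chat, Slc18a3, Th and Slc17a8). The genes were chosen by their FPKM levels and group differences in these same libraries, which were already known, so those values are a description. The calls of the fit that are counted for them further on follow from that choice and test nothing about them. Amacrine cells are the interneurons of the inner retina that synapse onto bipolar cells, ganglion cells and each other. Most of them release GABA or glycine, and smaller types add acetylcholine (the starburst cells), dopamine or glutamate. Retinal ganglion cells (RGCs), by contrast, are projection neurons that release glutamate, so these genes are used as amacrine markers.

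RGCs of C57BL/6J mice were profiled by RNA sequencing 2 weeks after an injection into the anterior chamber of the eye, with the injection at 6 weeks and the cells collected at 8 weeks of age. Control eyes received saline and kept an intraocular pressure (IOP) change between −1 and 1 mmHg. Mild IOP eyes received microbeads and rose by more than 1 and less than 4 mmHg, and Moderate IOP eyes received microbeads and rose by at least 4 mmHg. The cells were isolated by 4-step immunopanning, in which plates coated with the lectin BSL-1, with CD11b/c and with the VC1.1 antibody against HNK-1 (meant to hold back Thy1-bearing amacrine cells) came before a Thy1.2 plate that captured the RGCs. RNA from 12 Control, 12 Mild IOP and 6 Moderate IOP retinas was pooled by group and divided into triplicate libraries, which are technical replicates. Differences between groups are therefore differences between 3 pools, and the errors given below cover the technical replicates and not the animals. The pressure group, the animals in the pool and the number of retinas pooled cannot be told apart.

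Levels are FPKM (fragments counted per kilobase of transcript and relative to all mapped fragments, so they can be compared between genes) after division by a library factor between 0.983 and 1.06. The depth derived from the confidence intervals of the FPKM lay between 5020000 and 8890000 fragments per library. A gene's highest share of the summed FPKM was between 1.87% and 3.59% in 7 libraries, but 20.5% in Mild IOP replicate 2 and 9.14% in Moderate IOP replicate 3, so the differences of the fitted transmitter genes are also given without these 2 libraries. Among defining RGC markers, Rbpms stood between 66.0 and 283 FPKM, Thy1 between 29.3 and 87.2 FPKM and Sncg between 507 and 1424 FPKM across the 9 libraries. Gad1, a gene of the cells that the VC1.1 plate was meant to remove, stood above Rbpms in every library, by 4.93 to 8.37 times in Control, 5.81 to 9.30 times in Mild IOP and 1.52 to 3.96 times in Moderate IOP. It also stood above Thy1 in every library, but not above Sncg. Sncg was higher than Gad1 in Control (855 to 948 against 532 to 576 FPKM) and in Moderate IOP (1357 to 1424 against 396 to 437 FPKM). In Mild IOP the 2 genes overlapped (507 to 716 against 568 to 618 FPKM). In bulk RNA, fewer cells of a type and less RNA per cell cannot be told apart.

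The genes are placed in mm10 as the files give their loci. Gad1 (chr2:70562164-70602012) and Gad2 (chr2:22622327-22693877) encode the glutamate decarboxylases that make GABA, and Slc32a1 (chr2:158610758-158615747) encodes the vesicular transporter that loads GABA and glycine into synaptic vesicles, all 3 on the plus strand. Slc6a9 (chr4:117835258-117869305, plus strand) encodes GlyT1, a plasma membrane glycine transporter of glycinergic amacrine cells. Chat (chr14:32408203-32465909, minus strand) encodes choline acetyltransferase, and Slc18a3 (chr14:32462437-32464850, minus strand), the vesicular acetylcholine transporter, lies inside the Chat locus, where it overlaps 0 annotated Chat exons. Th (chr7:142892776-142899966, minus strand) encodes tyrosine hydroxylase of the dopaminergic cells, and Slc17a8 (chr10:89574020-89621249, minus strand) encodes the vesicular glutamate transporter VGLUT3. The library kit does not mark strand, so reads of overlapping genes cannot be told apart. The antisense gene Gad1os at the start of Gad1 was listed at 0 to 0.869 FPKM, and Ccdc24 at the end of Slc6a9 was listed at 0.739 to 8.21 FPKM.

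The sequences upstream of 4 of the genes are shown because Gad1, Gad2 and Slc6a9 were each lower in all Moderate IOP replicates than in all others and Slc32a1, which acts with Gad1 and Gad2, was not. RefSeq promoter windows on GRCm38.p6 were matched for 8 of 8 genes, and the 250 bases before each start were searched on both strands for the E-box (CANNTG), an AP-2 site (GCCNNNGGC), the GC box (GGGCGG) and the homeodomain site TAATTA. Printed below, 5′ to 3′ on the plus strand, is the longest run of each window that lies outside the annotated exons of the gene, with E-box and AP-2 matches in capitals. They are the 163 bases of chr2:70561879-70562041, the 128 bases of chr2:22622077-22622204, the 195 bases of chr4:117855297-117855491 before the last of the 3 RefSeq starts of Slc6a9 (the window of its first start lies wholly in annotated exons) and the 250 bases of chr2:158610508-158610757.
Gad1: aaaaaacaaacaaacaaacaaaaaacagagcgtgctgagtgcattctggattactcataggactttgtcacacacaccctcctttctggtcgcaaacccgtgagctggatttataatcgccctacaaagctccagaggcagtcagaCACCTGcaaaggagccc
Gad2: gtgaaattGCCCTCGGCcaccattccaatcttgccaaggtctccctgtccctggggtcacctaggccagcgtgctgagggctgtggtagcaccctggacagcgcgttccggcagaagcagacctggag
Slc6a9: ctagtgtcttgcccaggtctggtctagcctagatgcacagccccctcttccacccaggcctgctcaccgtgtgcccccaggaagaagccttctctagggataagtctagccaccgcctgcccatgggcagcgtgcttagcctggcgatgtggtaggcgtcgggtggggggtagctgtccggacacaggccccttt
Slc32a1: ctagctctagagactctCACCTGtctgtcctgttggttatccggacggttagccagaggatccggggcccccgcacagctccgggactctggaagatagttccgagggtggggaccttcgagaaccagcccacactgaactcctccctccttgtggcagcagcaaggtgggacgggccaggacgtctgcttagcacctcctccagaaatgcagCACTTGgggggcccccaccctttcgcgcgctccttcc
Over the full windows, Gad1 held 1 E-box and 1 GC box, Gad2 held 1 E-box and 2 AP-2 matches, and Slc32a1 held 2 E-boxes. The window of the first Slc6a9 start held 4 E-boxes and 2 GC boxes, and the windows of its other 2 starts held 0 matches of any of the 4 motifs. Of all 32851 promoter windows, 66.2% held an E-box, 32.7% a GC box, 13.7% an AP-2 match and 4.84% TAATTA. Slc32a1 and most windows thus held an E-box as well. No other match overlapped an E-box in these windows.

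The 8 genes spanned a wide range of levels. In each group the order of the means was Gad1, Slc6a9, Gad2, Th, Slc32a1, Slc18a3, Chat and Slc17a8. Gad1 ranked between 57 and 247 among the 23997 genes of a library, and Slc17a8 ranked 12931 or lower in every library. Neighbours in this order were separate in all replicates for Gad1, Slc6a9, Gad2 and Th in Control and Mild IOP. Th and Slc32a1 overlapped in Control but not in Mild IOP, Slc18a3 and Chat overlapped in Mild IOP but not in Control, and Chat and Slc17a8 overlapped in both. In Moderate IOP the replicates of Slc6a9 and Gad2 overlapped, which they did in neither of the other groups.

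**Figure D1:**
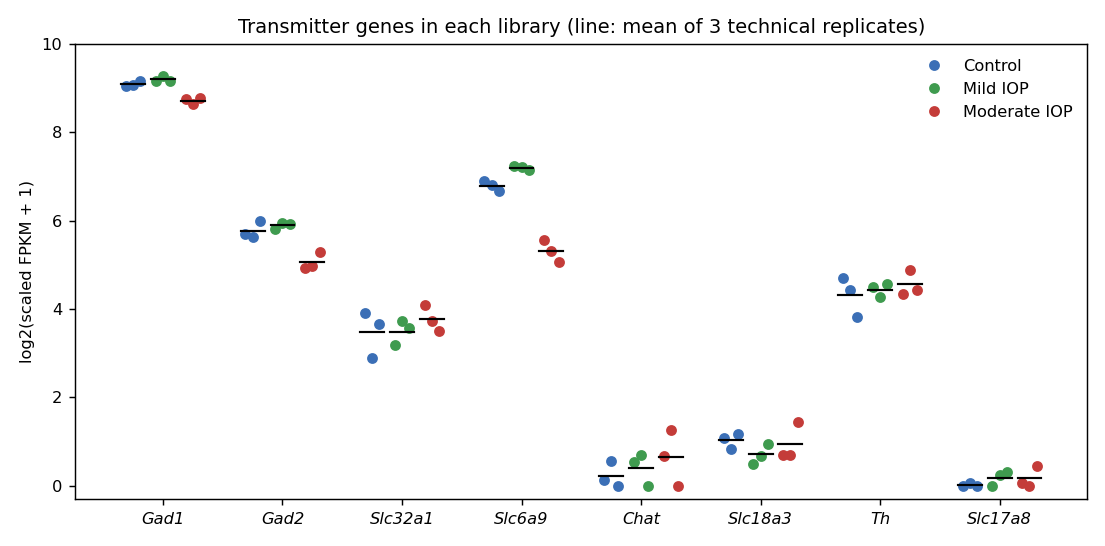
Level of each of the 8 transmitter genes in every library, as log2(scaled FPKM + 1) on the vertical axis, with the libraries of Control, Mild IOP and Moderate IOP as coloured points and the mean of the 3 technical replicates as a line. All Moderate IOP points lie below all Control and Mild IOP points for Gad1, Gad2 and Slc6a9, the points of the other 5 genes overlap between groups, and Chat and Slc17a8 lie near 0.

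Slc6a9 differed most between the groups in FPKM. Its level was 118, 111 and 101 FPKM in the Control replicates, 149, 148 and 142 FPKM in the Mild IOP replicates and 46.5, 38.8 and 32.6 FPKM in the Moderate IOP replicates. The 3 groups did not overlap, with Mild IOP above Control and Moderate IOP below both. The means were 110 ± 8.57, 146 ± 3.81 and 39.3 ± 6.93 FPKM (SD, n = 3 technical replicates each). The Control mean was 2.81 times and the Mild IOP mean 3.72 times the Moderate IOP mean. On the log2(FPKM + 1) scale of the fit, Moderate IOP was lower than Control by a difference of −1.48 (standard error 0.14, 2 standard errors either side −1.75 to −1.20) and differed from Mild IOP by −1.88 (−2.16 to −1.60). Mild IOP differed from Control by 0.40 (0.13 to 0.68). Without the 2 libraries that stand apart, these differences were −1.36, −1.75 and 0.39. A Slc6a9 value rested on 490 to 1402 derived fragments, which differed less between groups than the FPKM did. Control replicate 2 held 1377 fragments at 111 FPKM and Moderate IOP replicate 2 held 750 at 38.8 FPKM (depths of 8890000 and 8650000). Control replicate 3 held 972 at 101 FPKM and Moderate IOP replicate 1 held 561 at 46.5 FPKM (depths of 5070000 and 5020000). The cause of this was not tested.

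Gad1, the gene of GAD67, was the most abundant of the 8. Its level was 532, 540 and 576 FPKM in Control, 568, 618 and 574 FPKM in Mild IOP and 429, 396 and 437 FPKM in Moderate IOP. Moderate IOP lay below both other groups in every replicate, while Control and Mild IOP overlapped. The means were 549 ± 23.6, 587 ± 27.5 and 421 ± 21.5 FPKM (SD, n = 3), so that the Control mean was 1.31 times and the Mild IOP mean 1.39 times the Moderate IOP mean. The log2 difference of Moderate IOP was −0.38 from Control (standard error 0.10, −0.58 to −0.19) and −0.48 from Mild IOP (−0.68 to −0.28), and that of Mild IOP from Control was 0.09 (−0.10 to 0.29). Without the 2 libraries that stand apart these were −0.42, −0.47 and 0.05.

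Gad2, the gene of GAD65, made up a smaller part of the glutamate decarboxylase transcript. Its level was 51.2, 48.2 and 62.3 FPKM in Control, 54.9, 60.7 and 59.9 FPKM in Mild IOP and 29.3, 30.6 and 38.2 FPKM in Moderate IOP. As with Gad1, Moderate IOP lay below all Control and Mild IOP replicates, and the latter overlapped. The means were 53.9 ± 7.42, 58.5 ± 3.13 and 32.7 ± 4.81 FPKM (SD, n = 3), with the Control mean 1.65 times and the Mild IOP mean 1.79 times the Moderate IOP mean. The log2 difference of Moderate IOP was −0.70 from Control (standard error 0.15, −1.0 to −0.41) and −0.83 from Mild IOP (−1.12 to −0.53), against 0.12 (−0.17 to 0.42) between Mild IOP and Control. Without the 2 libraries that stand apart these were −0.82, −0.92 and 0.09.

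The ratios among the 3 genes also differed between groups. The level of Gad1 was 9.25 to 11.2 times that of Gad2 in Control, 9.59 to 10.3 times in Mild IOP and 11.4 to 14.7 times in Moderate IOP. It was 4.50 to 5.69 times that of Slc6a9 in Control, 3.81 to 4.19 times in Mild IOP and 9.24 to 13.4 times in Moderate IOP. Thus in FPKM the 3 lower levels in Moderate IOP were of unequal size, with Slc6a9 the furthest and Gad1 the least below the other groups. For Slc6a9 the derived fragments differed less than the FPKM, as given above.

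Slc32a1, whose product fills vesicles with the GABA that Gad1 and Gad2 make, was not lower in Moderate IOP, where its mean was the highest of the 3 groups. Its level was 14.0, 6.45 and 11.6 FPKM in Control, 8.08, 12.2 and 10.8 FPKM in Mild IOP and 16.1, 12.2 and 10.3 FPKM in Moderate IOP. The 3 groups overlapped, and the lowest and the highest library differed within Control by more than the group means did. The means were 10.7 ± 3.85, 10.3 ± 2.07 and 12.9 ± 2.95 FPKM (SD, n = 3). The log2 difference of Moderate IOP from Control was 0.29 (standard error 0.28, −0.27 to 0.84) and that of Mild IOP from Control was −0.00013 (−0.55 to 0.55). Without the 2 libraries that stand apart these were 0.42 and −0.12. The level of Gad1 was 38.0 to 83.8 times that of Slc32a1 in Control, 50.9 to 70.3 times in Mild IOP and 26.7 to 42.3 times in Moderate IOP.

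Th, the rate-limiting enzyme of dopamine synthesis, was measured at 25.1, 20.5 and 13.2 FPKM in Control, 21.5, 18.2 and 22.6 FPKM in Mild IOP and 19.3, 28.5 and 20.7 FPKM in Moderate IOP. The groups overlapped, and the means were 19.6 ± 6.01, 20.8 ± 2.26 and 22.8 ± 4.97 FPKM (SD, n = 3). The log2 difference from Control was 0.12 (standard error 0.23, −0.34 to 0.59) in Mild IOP and 0.24 (−0.23 to 0.70) in Moderate IOP, and without the 2 libraries that stand apart it was 0.20 and 0.29. A Th value rested on 109 to 411 derived fragments.

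The 2 cholinergic genes were close to the detection limit. Slc18a3 was measured at 1.11, 0.784 and 1.26 FPKM in Control, 0.413, 0.604 and 0.920 FPKM in Mild IOP and 0.606, 0.628 and 1.73 FPKM in Moderate IOP, on 7 to 23.7 derived fragments. Its groups overlapped, and its log2 difference from Control was −0.32 (standard error 0.30, −0.93 to 0.29) in Mild IOP and −0.08 (−0.69 to 0.52) in Moderate IOP, against −0.31 and −0.34 without the 2 libraries that stand apart. Chat was measured at 0.0983, 0.466 and 0 FPKM in Control, 0.448, 0.611 and 0 FPKM in Mild IOP and 0.585, 1.39 and 0 FPKM in Moderate IOP, so that 1 library of each group listed it at 0. Slc17a8 was listed at 0, 0.0471 and 0 FPKM in Control, 0, 0.185 and 0.234 FPKM in Mild IOP and 0.0443, 0 and 0.371 FPKM in Moderate IOP, on at most 9.59 derived fragments. A difference in Chat or Slc17a8 was not detectable at this depth, and both were under the mean of 0.5 FPKM needed for the fit.

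Thus 6 of the 8 genes were fitted among 13043 genes. Since they were chosen with these comparisons known, nothing is read from the counts that follow, and the comparisons share their Control or Mild IOP libraries. At a false discovery rate (FDR) below 0.1 in limma, 0 of the 6 passed between Mild IOP and Control (1 at an unadjusted p below 0.05, against 10.2% of all genes), where 0.399% of all genes passed. Between Moderate IOP and Control 2 passed, Gad2 and Slc6a9, both lower, where 1.84% of all genes passed and 0.889% passed as lower. Between Moderate and Mild IOP 3 passed, Gad1, Gad2 and Slc6a9, all lower, where 10.2% of all genes passed and 3.12% passed as lower. Groups did not overlap, with Moderate IOP lower, for 3 of the 6 against Control (9.48% of all genes) and for 3 of the 6 against Mild IOP (13% of all genes). For Mild IOP against Control the groups did not overlap for 1 of the 6, Slc6a9, which was higher (7.94% of all genes). Relative to Control, the median log2 difference over the 6 genes was 0.11 for Mild IOP and −0.23 for Moderate IOP, and it was −0.18 between Moderate and Mild IOP, where the medians over all genes were 0.0062, 0.0040 and −0.016.

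**Figure D2:**
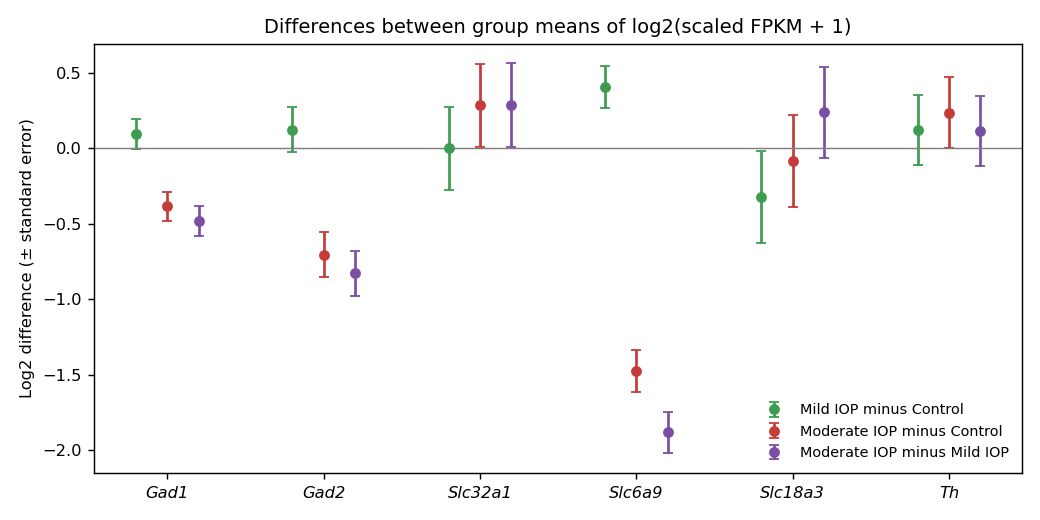
Difference between group means of log2(scaled FPKM + 1) for the 6 fitted genes, with bars of 1 standard error, for Mild IOP minus Control, Moderate IOP minus Control and Moderate IOP minus Mild IOP. Slc6a9 lies lowest at −1.48 and −1.88 in the 2 comparisons of Moderate IOP, Gad2 and Gad1 follow, and the points of Slc32a1, Slc18a3 and Th lie between −0.32 and 0.29.

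Other genes of the same pathways were taken from a list of 30 genes for the handling of GABA and glycine (12), acetylcholine (7) and dopamine (11), of which 23 were fitted. In limma, 0 of the 23 passed an FDR of 0.1 between Mild IOP and Control (2 at an unadjusted p below 0.05), 2 passed between Moderate IOP and Control (1 higher, 1 lower) and 3 between Moderate and Mild IOP (1 higher, 2 lower). Over all genes the shares that passed were 0.399%, 1.84% and 10.2%, so that the last count is near the share of all genes, and it was 0 without Mild IOP replicate 2. Their median log2 difference was 0.046, 0.0034 and −0.13 in these 3 comparisons.

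Among the genes for GABA and glycine, Slc6a11 (GAT-3), a plasma membrane GABA transporter, fell in Moderate IOP, from 67.3, 59.0 and 60.8 FPKM in Control and 64.8, 71.6 and 57.3 FPKM in Mild IOP to 40.7, 38.3 and 47.2 FPKM. Moderate IOP did not overlap either group, with a log2 difference of −0.56 from Control (standard error 0.14, limma FDR = 0.095) and −0.61 from Mild IOP (limma FDR = 0.028). The first of these calls held in 8 of 19 alternative settings. The second held in 18 and was lost without Mild IOP replicate 2 (limma FDR = 0.11). Without both libraries that stand apart the differences were −0.65 and −0.61 (limma FDR = 0.097 and 0.095). Of the 10 fitted genes for GABA and glycine, 7 had a lower mean log2 level in Moderate IOP than in Control, with a median of −0.27. Abat, the GABA transaminase that degrades GABA, differed by −0.28 (limma FDR = 0.33) and Slc6a5, the neuronal glycine transporter GlyT2, by −0.93 (standard error 0.35, limma FDR = 0.25) at 1.06 to 5.48 FPKM. Values of the latter overlapped between groups. Others of the list lay higher in Moderate IOP than in Control without passing, with Shmt1, which interconverts serine and glycine, at 0.87 (standard error 0.34, limma FDR = 0.27) and Aldh5a1, which acts after Abat, at 0.34 (standard error 0.26, limma FDR = 0.57).

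Of the acetylcholine list, 5 genes were fitted and 0 passed in any of the 3 comparisons in limma, with 1, 0 and 0 at an unadjusted p below 0.05. Ache, the acetylcholinesterase that breaks the transmitter down, stood at 145 to 189 FPKM and far above Chat, with a log2 difference of −0.01 (standard error 0.12) between Moderate IOP and Control. Slc5a7, the choline transporter of cholinergic terminals, reached at most 0.2195 FPKM. Of the dopamine list, 8 genes were fitted and Spr passed. Spr, the sepiapterin reductase that completes the synthesis of the cofactor of tyrosine hydroxylase, rose from 16.2, 17.0 and 11.3 FPKM in Control to 31.1, 33.0 and 31.9 FPKM in Moderate IOP, with Mild IOP between them at 20.0, 19.8 and 19.9 FPKM. Its log2 difference from Control was 1.08 (standard error 0.17, limma FDR = 0.017) in Moderate IOP, a call that held in 19 of 19 settings. Its difference between Moderate and Mild IOP was 0.66 (limma FDR = 0.044). That call held in 15 of 19 settings and was lost, among others, without Mild IOP replicate 2 (limma FDR = 0.14). Without both libraries that stand apart the differences were 1.08 and 0.66 (limma FDR = 0.076 and 0.21). Beside Th at 13.2 to 28.5 FPKM, Slc6a3 (the dopamine transporter) stood at 0 to 0.616 FPKM and Ddc (the decarboxylase after Th, which other amine-making cells also use) at 0 to 1.88 FPKM.

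**Figure D3:**
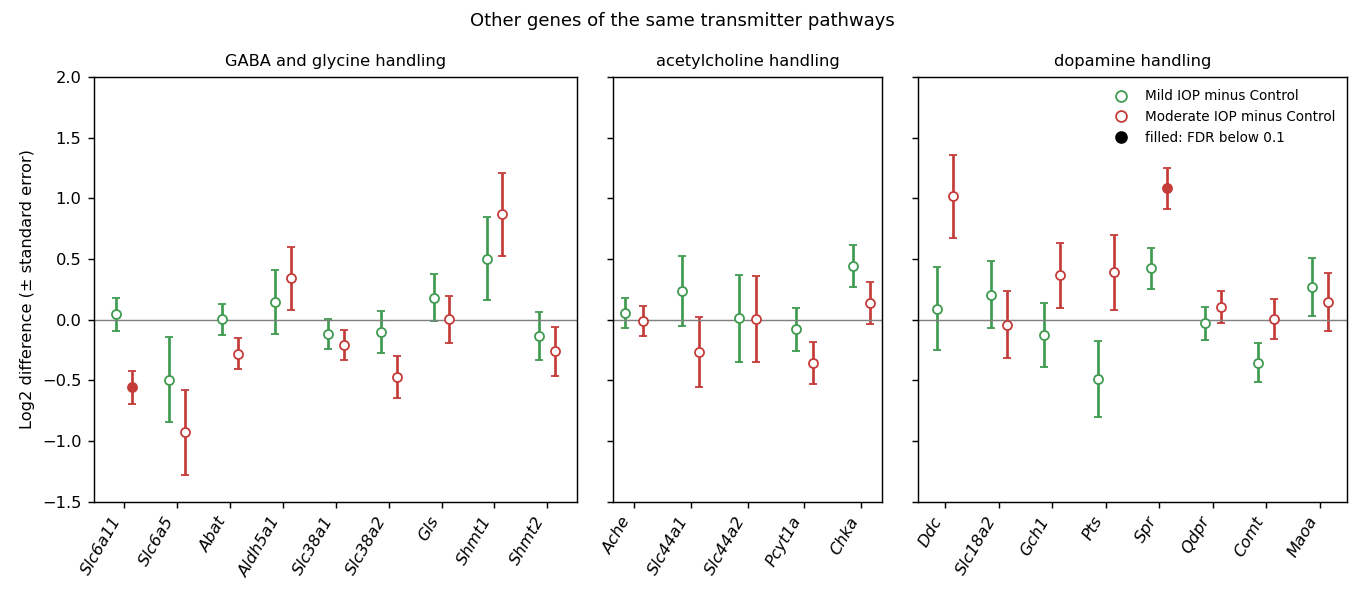
Log2 differences from Control, with bars of 1 standard error, of 22 of the 23 fitted genes that handle GABA and glycine, acetylcholine or dopamine, in Mild IOP and in Moderate IOP, where filled points have an FDR below 0.1 in limma. The filled points are Slc6a11 at −0.56 and Spr at 1.08 in Moderate IOP, and no point of Mild IOP is filled.

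Of 17 transcription factors expressed in amacrine cells 16 were fitted, and in limma 0 passed in each of the 3 comparisons, with 0 at an unadjusted p below 0.05 in each. Pax6, a factor of all amacrine cells that RGCs also express, stood at 425, 413 and 477 FPKM in Control, 381, 425 and 395 FPKM in Mild IOP and 390, 386 and 402 FPKM in Moderate IOP. Its log2 difference between Moderate IOP and Control was −0.16 (standard error 0.10). Tfap2b stood between 49.0 and 70.0 FPKM and Meis2 between 53.4 and 75.4 FPKM, and the groups of both overlapped between Moderate IOP and Control. The summed level of the 17 genes was 643 to 723 FPKM in Control, 629 to 664 in Mild IOP and 620 to 682 in Moderate IOP. That of the 8 transmitter genes was 728 to 766, 802 to 858 and 508 to 542. Most of the sum of the 8 was Gad1 (means of 549, 587 and 421 FPKM). Slc32a1 and Th had higher means in Moderate IOP than in Control. Pax6 made up 59.0% to 65.9% of the sum of the factors, and the other 16 summed to 230 to 246 FPKM in Control, 234 to 256 in Mild IOP and 230 to 280 in Moderate IOP. Ptf1a, the factor that sets amacrine fate in the developing retina, was listed at 0 in all 9 libraries. The level of Gad1 was 1.21 to 1.31 times that of Pax6 in Control, 1.45 to 1.49 times in Mild IOP and 1.03 to 1.10 times in Moderate IOP, with no overlap between the groups. Of 6 starburst markers, which belong to the cells that would carry Chat and Slc18a3, 2 were fitted (Isl1 and Rnd3, which other retinal cells share) and 0 passed in limma, with 0 at an unadjusted p below 0.05. Fezf1 was listed at 0 throughout, and Megf10, Sox2 and Slc5a7 reached no more than 0.869 FPKM.

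Several RGC markers were higher in Moderate IOP, where Gad1, Gad2 and Slc6a9 were lower. Of 15 RGC markers, all fitted, 0 passed between Mild IOP and Control in limma (1 at an unadjusted p below 0.05). Against Control, 4 passed as higher in Moderate IOP (Nefl, Isl2, Stmn2 and Sncg). In that comparison 12 of the 15 had a log2 difference above 0 and 3 below 0. The means of Pou4f2 (9.51 and 8.91 FPKM in Control and Moderate IOP), Pou4f3 (3.69 and 3.09) and Ebf1 (12.59 and 12.53) were lower in Moderate IOP. Between Moderate and Mild IOP 10 passed as higher (6 of them without the 2 libraries that stand apart). The medians of the 15 were −0.16, 0.50 and 0.59 on the log2 scale. Their summed level was 2021 to 2194 FPKM in Control, 1533 to 1905 in Mild IOP and 3055 to 3319 in Moderate IOP, and none was at 0. The largest part of this sum was Sncg, at means of 911, 641 and 1389 FPKM. Slc17a6, the vesicular glutamate transporter that RGCs use, did not pass, and Gad1 stood 12.8 to 17.2 times above it in Control, 15.0 to 16.7 times in Mild IOP and 8.39 to 11.7 times in Moderate IOP. All 10 rod markers had a log2 difference from Control below 0 in both Mild IOP and Moderate IOP, with medians of −0.63 and −0.54. Their summed levels were 533 to 575, 313 to 382 and 356 to 371 FPKM in the 3 groups. In limma, 2 of 10 passed as lower in Mild IOP and 3 of 10 in Moderate IOP. Without the 2 libraries that stand apart, these counts were 0 and 2. Of 10 Müller glia and astrocyte markers, 9 were fitted and 2 passed as higher in Moderate IOP than in Control (Rlbp1 and Apoe). In that comparison 7 of the 9 had a log2 difference above 0 and 2 below 0, with a median of 0.68. The summed level of the 10 was 602 to 624, 623 to 663 and 611 to 668 FPKM in the 3 groups. Most of this sum was Dkk3, at means of 485, 509 and 423 FPKM. Dkk3 was lower in all Moderate IOP replicates than in all Control replicates. The part of these markers in the levels of the transmitter genes was not tested.

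**Figure D4:**
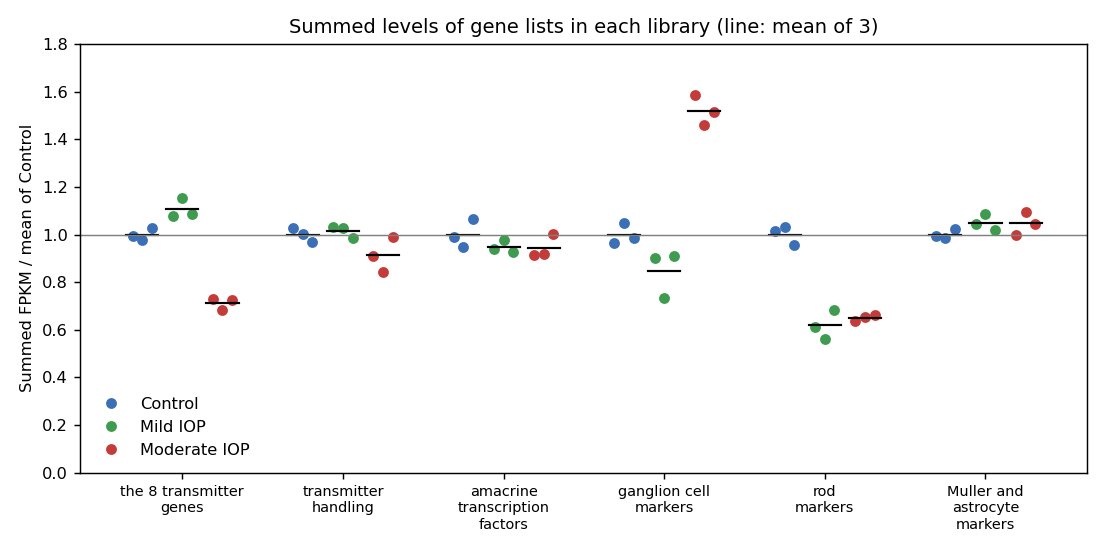
Summed FPKM of gene lists in each library, divided by the mean of the 3 Control libraries of that list, with a line at the mean of each group. The 8 transmitter genes, most of whose sum is Gad1, lie at 0.68 to 0.73 in Moderate IOP and 1.08 to 1.15 in Mild IOP. The RGC markers, of whose sum Sncg is the largest part, lie at 1.46 to 1.59 in Moderate IOP and 0.73 to 0.91 in Mild IOP. The amacrine transcription factors, more than 0.5 of whose sum is Pax6, lie near 1 in all groups. Most of the sum of the Müller glia and astrocyte markers is Dkk3.

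For each fitted gene, the genes with the most similar profile were found by Pearson's r of log2(FPKM + 1) over the 9 libraries among 8179 genes with a mean of at least 5 FPKM. These are descriptions only, since the 9 libraries come from 3 pools and a contrast between 2 pools is enough to give a high r. Nearest to Gad1 were Nsmf, Ulk2 and Pex5l (r = 0.98 each). Nearest to Gad2 were Kcnab1 (r = 0.98), AI848285 (r = 0.97) and Gad1 itself (r = 0.96). Nearest to Slc6a9 were Ctnnb1 (r = 0.98), AI847159 (r = 0.98) and Naa60 (r = 0.97). AI847159 stood at means of 9.32, 11.5 and 0.556 FPKM in Control, Mild IOP and Moderate IOP. For the genes whose groups overlapped the nearest were less close or rested on few fragments, with Sec23ip (r = 0.92) for Slc32a1, Rtkn (r = 0.95) for Th and Rchy1 (r = 0.98) for Slc18a3.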

How the data were processed

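RNA of pooled, immunopanned RGCs was reverse transcribed from poly(A) tails and amplified (SMART-seq v4), made into Nextera XT libraries and sequenced from both ends. The authors aligned the reads to mm10 (the submitters' processing notes list FastQC, Trimmomatic, TopHat2, Cufflinks and Cuffdiff) and deposited 1 table per library with the FPKM of each locus and its confidence interval. Loci with the same symbol were summed, and a symbol whose estimate had failed in 1 or more libraries was not fitted. The files hold no read counts, so depth was derived from the 95% confidence intervals of genes of at least 2000 nt and at least 100 derived fragments, and derived fragments are (2 × FPKM / half-width of the interval) squared.

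FPKM were divided by median-of-ratios factors, a pseudocount of 1 was added, and limma 3.58.1 (R 4.3.3) was run on the 13043 genes whose mean reached 0.5, with 1 mean per group, all 9 libraries in the fit and a trend of variance with level. A call is an FDR below 0.1 (Benjamini-Hochberg over all genes fitted, within a comparison). Fold changes on this scale understate the change of low genes. Other steps used Python 3.11.15, numpy 2.4.6, pandas 2.3.3 and matplotlib 3.10.9.

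The 8 genes, the gene lists and the tests were chosen with earlier results of these data known. Named are the 8 genes, the 3 most abundant and the called genes of each list, and the 3 genes nearest to each fitted gene; other list members (such as Abat, Ddc, Slc6a5 and Ptf1a) were named after their values were seen. Gene positions come from the files, exons and strands from GENCODE M21, and promoter sequence from RefSeq on GRCm38.p6. No 2 libraries of a group held the same values (r = 0.945 to 0.972 across genes). Alternatives changed the scaling, pseudocount, filter, failed estimates, variance, replicate block and libraries. The authors' tests of reads were not rerun. A gene of the GABA list that the naming rule selects is counted but not reported here.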

Additional observations from a re-analysis of the deposited data

How the results depend on the processing

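Every log2 difference of the fitted transmitter genes moved by less than 1 SD of a library, as fitted, under 19 alternatives (18 for Slc18a3, which a mean of at least 2 FPKM leaves out), 1 of which (leaving out Mild IOP replicate 2 and Moderate IOP replicate 3 together) was chosen after seeing the data. The count of these genes called between Moderate IOP and Control was 2. It was 3 with no library factor and with a mean of at least 2 FPKM, and 1 with the variance taken from the compared groups only. It was 1 to 3 when a library was left out (1 without any 1 of the Control libraries, Mild IOP replicate 1 or Moderate IOP replicates 1 or 2, and 3 without Mild IOP replicate 2). It stayed at 0 between Mild IOP and Control and at 3 between Moderate and Mild IOP. Of the handling genes, 2 were called between Moderate IOP and Control, but 1 with a pseudocount of 0.1, with no filter on low values and with the variance of the compared groups only, and 1 to 2 when a library was left out. Between Moderate and Mild IOP 3 were called, 1 without both libraries, and 0 to 4 when a library was left out, with 0 without Mild IOP replicate 2 and 1 without Mild IOP replicate 1. Over all genes, 52 were called between Mild IOP and Control, 24 with no filter, 11 with the variance of the compared groups only, 17 without both libraries and 15 to 183 when a library was left out. Between Moderate IOP and Control 240 were called, 134 with the variance of the compared groups only and 61 to 287 when a library was left out. Between Moderate and Mild IOP 1324 were called, 469 without both libraries and 519 to 1399 when a library was left out. The cause of these changes was not tested.

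With the replicate number as a block, 25, 135 and 1 were called in place of 52, 240 and 2 (all genes between Mild IOP and Control, all genes between Moderate IOP and Control, and handling genes between Moderate IOP and Control). Same-numbered libraries deviated from their group means with correlations of −0.0051 to 0.044 over 9 pairs, so they share only a number. Chat and Slc17a8 were fitted only with no filter on low values and were not called there. Depth limits Chat, Slc18a3 and Slc17a8, whose values rest on at most 33.4 derived fragments.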

Other observations

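Of 10 amacrine peptides and subtype markers 9 were fitted, and 0 passed in limma between either IOP group and Control. An unadjusted p below 0.05 was reached by 6 for Mild IOP and 3 for Moderate IOP. Between Moderate and Mild IOP, 3 passed in limma as higher in Moderate IOP. Npy, a peptide transmitter, stood at 330, 379 and 335 FPKM in Control, 248, 190 and 292 FPKM in Mild IOP and 439, 341 and 363 FPKM in Moderate IOP. Its log2 difference between Moderate and Mild IOP was 0.66 (limma FDR = 0.038). Tac1, the precursor of substance P, stood at 166, 169 and 222 FPKM in Control, 115, 116 and 123 FPKM in Mild IOP and 184, 206 and 202 FPKM in Moderate IOP, with a difference of 0.73 (limma FDR = 0.011). Cck differed by 0.79 (limma FDR = 0.096). These 3 genes had lower means in Mild IOP than in Control, whereas 5 of the 9 had a positive log2 difference there, such as Dab1 (0.94) and Lamp5 (0.58), neither of which passed (limma FDR = 0.22 and 0.26). Without the 2 libraries that stand apart, Npy (limma FDR = 0.15) and Cck (limma FDR = 0.48) no longer passed and 1 of the 3 remained, Tac1. Several of these genes are also expressed by RGCs.

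Genes behind the HNK-1 epitope, which the VC1.1 plate binds, were present in all groups. Of 4 genes fitted, 0, 0 and 1 passed in limma in Mild IOP against Control, Moderate IOP against Control and Moderate against Mild IOP (0, 1 and 1 at an unadjusted p below 0.05). Ncam1, a carrier of the epitope, stood at 74.6, 70.7 and 60.9 FPKM in Control, 83.7, 92.4 and 72.3 FPKM in Mild IOP and 58.8, 60.5 and 62.6 FPKM in Moderate IOP, with a log2 difference of −0.44 between Moderate and Mild IOP (limma FDR = 0.082) that did not pass without Mild IOP replicate 2 (limma FDR = 0.27). Of the bipolar markers 1 of 9 fitted genes passed, Pcp2, which was higher in Moderate than in Mild IOP by 1.03 (limma FDR = 0.028; 0.17 without both libraries that stand apart). Of 5 cone, 3 horizontal, 6 microglia and 2 vascular markers fitted, 0 passed in limma in any of the 3 comparisons, and at most 1 gene of each list had an unadjusted p below 0.05 in a comparison.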
